A study of Arabidopsis thaliana with 11 samples.

Results

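Flower buds of wild-type Arabidopsis thaliana were compared with leaves by polyA-selected, paired-end RNA sequencing. The comparison took the 2 flower bud samples sequenced on a HiSeq2000 and leaf samples 3 and 4, sequenced on a GA II, an older Illumina instrument. These are 4 of the 11 libraries of the study. Leaf 1 and 2, which were sequenced on the HiSeq2000, and every multiplexed library stayed out of the test. All groups shared one genotype, received no treatment, grew in soil in a greenhouse, and were taken at growth stage 6.0, when the first flower had opened. The leaf group does not state which leaves were taken, and the bud group does not state bud size, so both are mixtures of organs and cell types. Every bud library came from the HiSeq2000 and both tested leaf libraries came from the GA II, so tissue and sequencer cannot be told apart in this test. The levels in the HiSeq2000 runs of leaf 1 and 2 are given beside the tested values as a description, on the same scale and without a test. Differences from either leaf pair share the same 2 bud samples. No label ties a numbered sample to plants of its own. The p-values below therefore reflect only how far these 4 libraries varied, and that variation may be technical.

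A young flower bud holds the floral meristem and the sepals, petals, stamens and carpels it forms, whose identities are set by combinations of MADS-box transcription factors. In the anther, the tapetum is a nurse tissue that makes the precursors of the pollen wall and the lipids and proteins of the pollen coat, while meiosis in the sporocytes gives rise to pollen. A mature leaf is mostly mesophyll, whose chloroplasts hold the photosystems, the Calvin cycle and photorespiration, and it carries chemical defences such as glucosinolates, sulphur compounds that myrosinases split when tissue is damaged. In bulk tissue, fewer cells of a type and less RNA per cell cannot be told apart.

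The bud libraries held 182707504 and 182862355 counted read pairs, and leaf 3 and 4 held 35302492 and 37682650. Per the file headers, a pair counts when both mates are properly paired on the same locus. Levels are given in CPM, counts relative to a library size scaled by TMM, a normalization that assumes that most loci do not differ. A count of 0 allows up to 3 pairs, which is 0.0122 and 0.0124 CPM in the buds but 0.113 and 0.107 CPM in leaf 3 and 4, so low levels were far less visible in these leaves. The coefficient of variation between replicates was 32.9% for the buds, 10.7% for leaf 3 and 4 and 42.4% for leaf 1 and 2. The bud pair thus varied more than the leaf pair it was tested against.

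Most defining markers followed the labels. Of the guard cell markers, KAT1 depended on the leaf pair and MYB60 did not. The buds held MYB60 at 2.73 and 1.95 CPM and leaf 3 and 4 at 13.5 and 14.0 CPM. Leaf 1 and 2 held MYB60 at 14.3 and 14.1 CPM. AP1 stood at 123 and 156 CPM in bud 1 and bud 2 and at 0 pairs in leaf 3 and 4, and the stamen regulator AMS at 81.5 and 66.5 against 0.263 and 0.213 CPM. RCA, the Rubisco activase of mesophyll chloroplasts, stood at 1066 and 2491 CPM in the buds and 12147 and 12378 CPM in leaf 3 and 4, so the buds were not free of it, and its difference was -3.53 without bud 2. Of 7 root markers 5 passed the filter on low counts, 2 were higher in the buds and 2 were lower. The root hair gene EXP7 was not tested, with 3 pairs in the buds and 0 in leaf 3 and 4. The seed storage genes were at or near 0: of 6 only CRA1 was tested, at 0.590 and 0.116 against 0.0751 and 0.178 CPM, with no call (edgeR adjusted p 0.282). Of the further tissue markers, the tapetum gene AT5G07230, annotated as a lipid transfer protein, stood at 71.9 and 40.9 against 0.0375 and 0 CPM, and PRF5, a pollen profilin, at 52.6 and 29.8 against 0 and 0.0355 CPM. LHCB2.1, a light-harvesting protein, stood at 514 and 752 against 5993 and 5225 CPM, and the guard cell potassium channel KAT1 at 21.4 and 19.1 against 36.9 and 42.0 CPM. Leaf 1 and 2 held KAT1 at 15.3 and 16.3 CPM, below both bud samples, and its call was lost without leaf 3, without leaf 4 and under library size scaling (edgeR adjusted p 0.0975, 0.191 and 0.592). Of the root markers, COBL9, known from root hairs, stood at 4.09 and 6.26 against 0 and 0.0355 CPM, and CASP1, of the endodermis, had no bud pair and 0.338 and 0.213 CPM in leaf 3 and 4, at least 44.4-fold lower in the buds. What part these other cell types have in the lists below was not tested.

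Of 28094 loci, 23078 passed the filter. A locus was called at an edgeR adjusted p under 0.05. Flower buds had 7156 loci called higher, 31% of those tested, and 4722 called lower, 20.5% of those tested. Within these, 6379 were more than 2-fold higher and 4004 more than 2-fold lower, and 2183 against 146 passed 64-fold. Much of that asymmetry lay in loci that the leaf libraries barely detected: 1582 of the loci called higher had no pair in leaf 3 and 4, against 14 called lower with no pair in the buds, and the size fitted for such loci depends on the prior count. Among loci with more than 3 pairs in the lower tissue, 4021 were more than 2-fold higher and 3966 more than 2-fold lower, and 217 against 115 passed 64-fold. The median log2 difference over tested loci was 0.21, and 1.03 when libraries were scaled by their totals alone, which gave 13418 loci higher and 2612 lower. That scaling moved the share of calls that were higher from 60.2% to 83.7%, so gene lists below are read against the TMM background of 31% higher and 20.5% lower. The number called rose when either bud sample was left out and fell when either leaf sample was left out. Such a fit takes its variation from the pair that remains, 10.7% for leaf 3 and 4 and 32.9% for the buds. A call lost or gained on leaving out a library therefore need not mean a smaller or larger difference. This limit holds for every left-out library in this text.

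**Figure D1:**
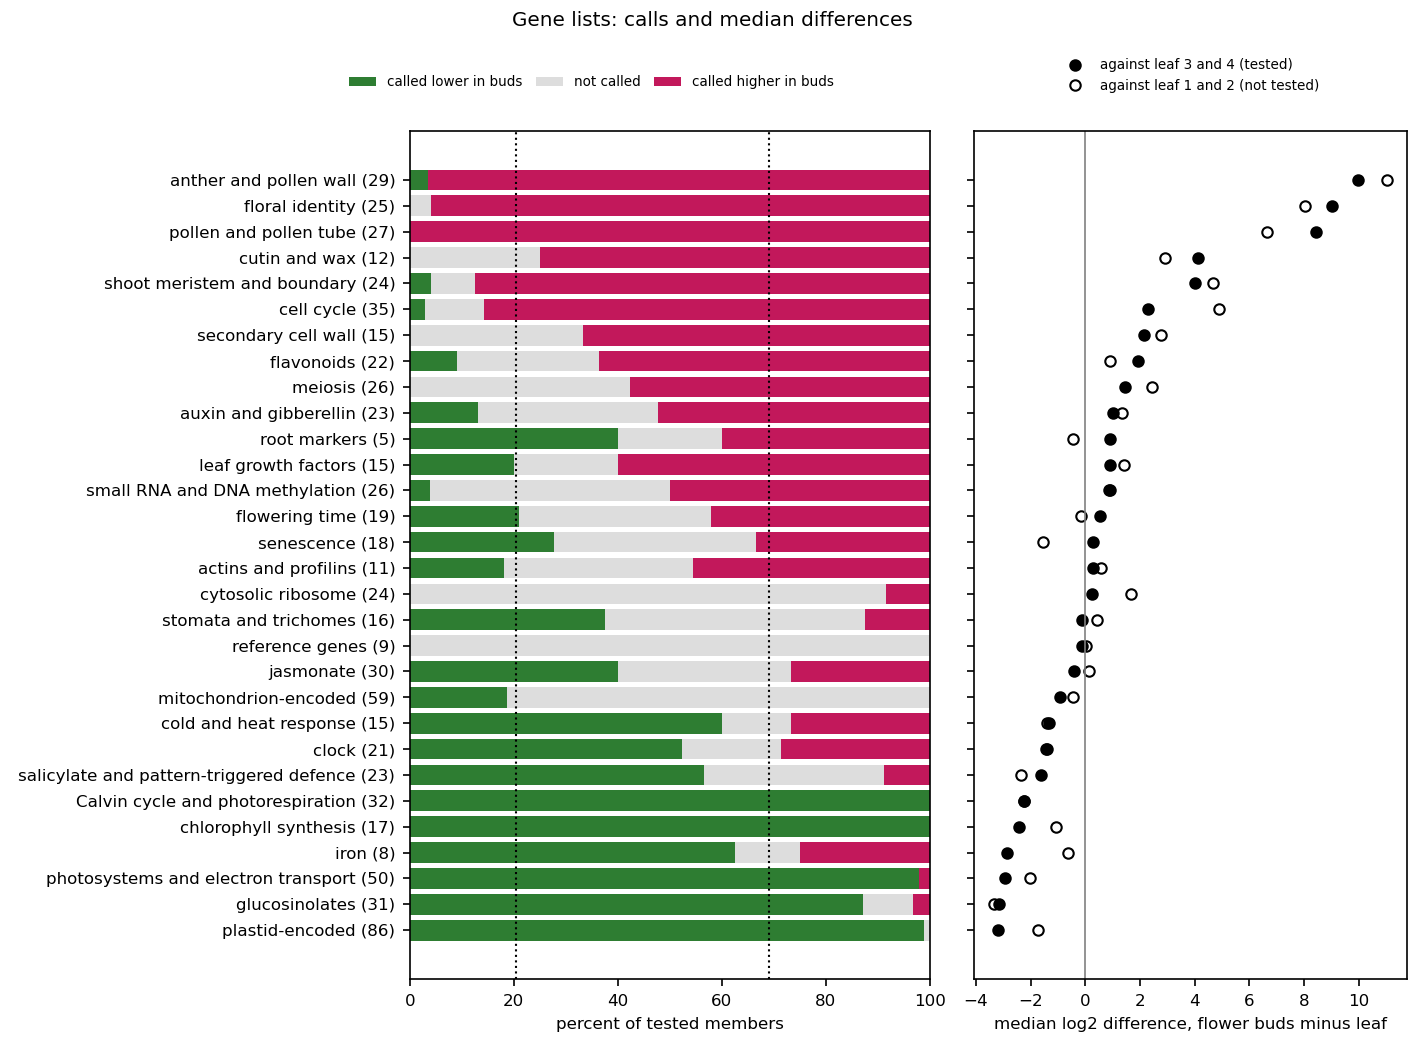
Left, the percent of tested members of each gene list called lower (green), not called (grey) and called higher (red) in flower buds, with the number tested in brackets; the dotted lines mark the share of all tested loci called lower (20.5%) and higher (31%). Right, the median log2 difference of the list against leaf 3 and 4 (filled) and, untested, against leaf 1 and 2 (open). All 27 pollen genes were called higher, all 32 Calvin cycle and photorespiration genes lower, and none of the 9 reference genes in either direction.

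The largest differences towards the buds included genes of the tapetum and pollen coat. Among named loci of at least 20 CPM in the higher tissue, the 8 leading bud loci were ATA27, GRP19, EXL4, XTH3, MEE48, CYP96A15, TSM1 and LTP12. None of them had a pair in leaf 3 or 4. ATA27, a glycosyl hydrolase, stood at 926 and 953 CPM in the buds, at least 17158-fold higher against a floor of 3 pairs over both leaves. XTH3, a xyloglucan endotransglucosylase that remodels cell walls, reached 367 and 310.4 CPM, at least 6196-fold. TSM1, a methyltransferase, reached 286 and 226 CPM, at least 4681-fold. CYP96A15, a cytochrome P450 that oxidizes the alkanes of stem wax, reached 283 and 242 CPM, at least 4790.0-fold, yet leaf 1 and 2 held it at 0.995 and 0.915 CPM. In the other 7, leaf 1 and 2 had at most 0.0622 CPM.

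In the other direction the 8 leading loci were MSRB6, XTH31, IGMT4, LHCB1.4, RAV2, DOT1, CYP706A6 and IGMT1. MSRB6, a methionine sulfoxide reductase, stood at 151 and 183 CPM in leaf 3 and 4 and 0.0244 and 0.0332 CPM in the buds, a log2 difference of -12.46 ± 0.40 (SE; edgeR adjusted p 7.56e-05). XTH31, another cell wall enzyme of the XTH family, stood at 267 and 229 against 0.208 and 0.0415 CPM, a log2 difference of -10.95 ± 0.82 (SE). RAV2, a transcription factor that represses flowering, stood at 198 and 99.7 against 0.472 and 0.216 CPM. The difference of XTH31 was -12.50 without bud 1 and -10.22 without bud 2, that of RAV2 -9.42 without bud 1 and -8.15 without leaf 3, and that of DOT1 -9.60 without bud 2. Several of the 8 were unequal between the leaf pairs: leaf 1 and 2 held MSRB6 at 33.5 and 2.04, XTH31 at 4.08 and 0.909 and DOT1, a glycine-rich protein, at 37.4 and 1.67 CPM, against 175 and 174 CPM for DOT1 in leaf 3 and 4.

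Floral organ identity genes were almost all higher in the buds. Of 25 listed genes, all of which passed the filter, 24 were called higher, none lower and 1 was not called, against the background of 31% and 20.5%. The median log2 difference was 9.03, or 7.09 with genes that had no leaf pair set to their counting bound, against 0.21 for all tested loci. SEP3, which joins the other MADS proteins into complexes, stood at 223 and 153 CPM in bud 1 and 2 and 0.300 and 0.568 CPM in leaf 3 and 4. PI, which with AP3 specifies petals and stamens, stood at 261 and 182 CPM against 0.113 and 0.142 CPM. AG, which specifies stamens and carpels, stood at 82.8 and 64.4 against 1.01 and 1.17 CPM. In each the bud values lay far above both leaf values, with log2 differences of 8.75 ± 0.46, 10.75 ± 0.44 and 6.07 ± 0.30 (SE; edgeR adjusted p 7.94e-05, 7.56e-05 and 7.56e-05). The difference of SEP3 was 9.34 without leaf 4.

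Several identity genes had no pair in leaf 3 and 4. AP1, which starts the floral meristem and specifies sepals and petals, was at least 2548-fold higher in the buds, and AP3, at 166 and 126 CPM, at least 2664-fold. STK, which specifies ovules, stood at 37.4 and 15 CPM, at least 481-fold higher. CRC, which acts in carpels and nectaries, stood at 10.7 and 21.3 CPM, at least 291-fold higher. Bud 2 held more CRC than bud 1, and bud 1 more STK than bud 2. LFY, the regulator that turns a shoot meristem into a flower, stood at 2.49 and 2.71 CPM against 0 and 0.0355 CPM, a ratio of 142 with a 95% counting interval of 25.5 to 5629. Other identity genes were well expressed in leaves. SEP4, which overlaps in function with the other SEP genes, stood at 12.9 and 12.8 CPM in the buds and 17.9 and 17.9 CPM in leaf 3 and 4, with no call (-0.48 ± 0.21, SE; edgeR adjusted p 0.0984), and turned to 0.35 under library size scaling. AP2, which restricts AG, was higher by 1.65 ± 0.23 (SE; edgeR adjusted p 0.00151) but stood at 12.1 and 10.4 CPM in leaf 3 and 4 and 27.2 and 19.7 CPM in leaf 1 and 2. FUL, a MADS gene of flowering and fruit development, stood at 49.0 and 30.3 CPM in the buds and 0.788 and 0.568 CPM in leaf 3 and 4, while leaf 1 and 2 held 29.8 and 39.5 CPM, close to the buds.

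The tapetum and pollen wall list was called higher in 28 of 29 genes and lower in 1. Its median log2 difference was 9.98, or 9.62 at the counting bounds, and its summed level was 5095.6 and 5792.2 CPM in the buds against 49.1 and 42.3 CPM in leaf 3 and 4. Among the regulators of the tapetum, DYT1, an early one, stood at 0.944 and 0.411 CPM and had no pair in leaf 3 and 4, at least 12.4-fold higher, and MS1, a late one, stood at 8.59 and 8.64 CPM, a ratio of 472 with a 95% counting interval of 84.6 to 18643. Enzymes that make sporopollenin, the polymer of the outer pollen wall, were called as well. ACOS5, a fatty acyl-CoA synthetase, reached 207 and 111 CPM with no pair in leaf 3 and 4, at least 2914-fold higher, and the fatty acid reductase MS2 reached 188 and 117 CPM, at least 2792-fold. LAP6, a polyketide synthase of the same route, stood at 148 and 126 against 5.22 and 5.83 CPM, so not every enzyme of the route was absent from the leaves.

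Pollen coat genes were nearly absent from leaf 3 and 4. GRP19, an oleosin-like coat protein, stood at 969 and 845 CPM in the buds with no pair in leaf 3 and 4, at least 16578-fold higher. GRP17, another oleosin-like coat protein, stood at 979.7 and 2273 CPM against 0 and 0.0355 CPM, a ratio of 88778 with a 95% counting interval of 15934 to 3506550.0. EXL4, a lipase of the pollen coat, reached 589 and 555 CPM, at least 10444-fold, and MEE48, annotated as a family 17 glycosyl hydrolase, 281 and 245 CPM, at least 4809.5-fold. The bud samples differed from each other in GRP17 by more than in GRP19 or EXL4. The one gene of the list that was lower was TPD1, a secreted ligand that anthers need to form the tapetum, at 5.24 and 4.11 CPM in the buds and 22.2 and 16.9 CPM in leaf 3 and 4 (-2.06 ± 0.27, SE; edgeR adjusted p 0.00120). Its receptor EMS1 was higher, at 50.3 and 52.5 against 2.29 and 2.81 CPM (4.33 ± 0.25, SE; edgeR adjusted p 9.15e-05).

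Every one of the 27 pollen and pollen tube genes was called higher, with a median log2 difference of 8.45, or 7.29 at the counting bounds. Members with at most 3 leaf pairs passed the filter through the buds and could hardly be called lower. Of 1676 tested loci with no pair in leaf 3 and 4, 1582 were called higher. The same limit holds for such members of every other list, among them the floral, anther, meristem, secondary wall, cutin, hormone, growth factor, jasmonate and small RNA lists. In reverse, members with at most 3 bud pairs, such as MYB76 and bHLH39, passed through the leaves and could hardly be called higher. VGD1, a pectin methylesterase that loosens the wall of the growing tube, stood at 517 and 638 CPM in the buds and 0 and 0.0355 CPM in leaf 3 and 4, a ratio of 31612 with a 95% counting interval of 5674 to 1248620.0; reads of its close relative VGDH1 may be shared with it. PPME1, another pollen pectin methylesterase, stood at 347 and 292 against 0 and 0.107 CPM. RALF4, a peptide signal that keeps the tube intact, had 55.0 and 32.2 CPM and no leaf 3 or 4 pair, at least 798-fold higher. Its receptor gene ANX1 was the least different member, at 11.4 and 15.6 against 5.07 and 4.09 CPM (1.57 ± 0.28, SE; edgeR adjusted p 0.00432), whereas the related ANX2 had no pair in these leaves. AGP11, an arabinogalactan protein of pollen, stood at 13.8 and 64 CPM, unequal between the bud samples, and AGP6 at 36.5 and 117 CPM, with differences of 7.89 without bud 1 and 6.20 without bud 2. The sperm cell regulator DUO1 was near the limit of detection of the leaf libraries, at 1.16 and 0.768 CPM in the buds, at least 17.7-fold higher, and HAP2, which fuses the gametes, stood at 1.29 and 1.1 against 0 and 0.107 CPM, a ratio of 21.8 with a 95% counting interval of 7.42 to 106.

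**Figure D2:**
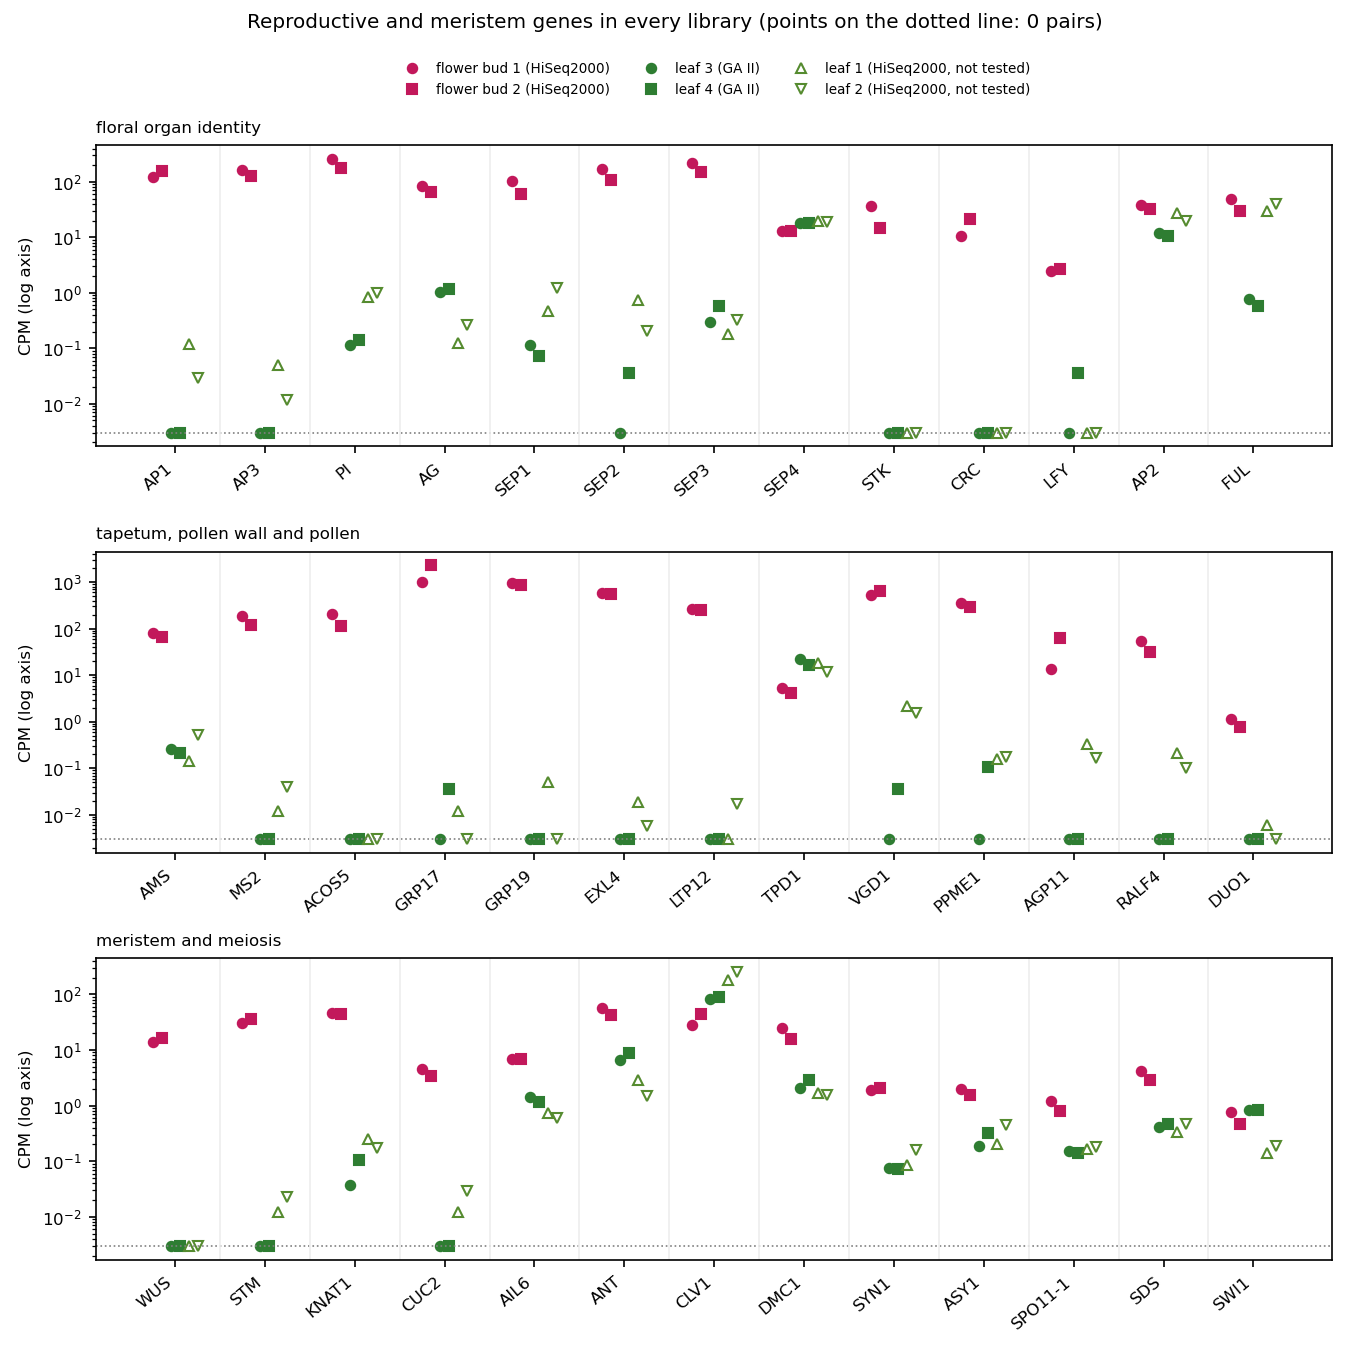
Levels of 39 genes in each library, in CPM on a log axis; filled red symbols are the 2 flower bud samples, filled green symbols leaf 3 and 4, and open symbols leaf 1 and 2, which were not tested. Points on the dotted line had 0 pairs. SEP4, TPD1 and CLV1 were among the genes that were no higher in the buds than in leaf 3 and 4. FUL stood at 29.8 and 39.5 CPM in leaf 1 and 2, close to the 49.0 and 30.3 CPM of the buds.

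Meiotic genes were called higher in 15 of 26 cases, lower in none and not called in 11, with a median log2 difference of 1.46. SYN1, the meiotic cohesin, stood at 1.91 and 2.04 CPM in the buds and 0.0751 and 0.0710 CPM in leaf 3 and 4 (4.74 ± 0.53, SE; edgeR adjusted p 6.55e-04). DMC1, the meiotic recombinase, stood at 24.9 and 15.4 against 2.06 and 2.88 CPM (3.03 ± 0.35, SE; edgeR adjusted p 7.56e-04). SPO11-1, which cuts the DNA to start recombination, was called higher at 1.23 and 0.805 against 0.150 and 0.142 CPM, while SPO11-2, which acts with it, stood at 2.86 and 1.69 against 3.68 and 2.81 CPM with no call (edgeR adjusted p 0.300). The count was 23 under library size scaling and stood at 19 higher and 2 lower without bud 1.

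Cell cycle genes were higher in 30 of 35 cases and lower in 1, with a median log2 difference of 2.29. Mitotic genes had the largest differences: CYCB2;1, a B-type cyclin, stood at 6.51 and 4.06 against 0.263 and 0.355 CPM (4.09 ± 0.45, SE; edgeR adjusted p 6.35e-04), and AUR2, a kinase of chromosome segregation, at 29 and 14.1 against 1.76 and 2.02 CPM (3.51 ± 0.42, SE; edgeR adjusted p 8.30e-04). KN, the syntaxin that builds the cell plate, stood at 97.1 and 49.9 against 8.63 and 11.7 CPM. Several genes of DNA replication were not called: MCM7, a subunit of the replicative helicase, stood at 27.6 and 42.3 against 31.0 and 31.9 CPM, MCM5, MCM3 and PCNA1 were uncalled too, and MCM7 turned to -0.19 without bud 2. CDC6, which loads that helicase, was lower in the buds, at 5.66 and 3.04 against 13.2 and 13.1 CPM (-1.60 ± 0.35, SE; edgeR adjusted p 0.00902), a call that library size scaling removed. Leaf 1 and 2 held CDC6 at 0.572 and 0.185 CPM, below both bud samples, so its direction depended on the leaf pair. The difference of AUR2 was 2.90 without bud 1. The summed level of the list was 1124.9 and 805.82 CPM in the buds and 305.83 and 330.68 CPM in leaf 3 and 4, but 60.6 and 20.6 CPM in leaf 1 and 2. The size for the list thus depended on the leaf pair too: MCM7 stood at 3.38 and 0.735 CPM in leaf 1 and 2, far below the buds.

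The cytosolic ribosome depended on the leaf pair as well. Against leaf 3 and 4, 2 of 24 ribosomal protein genes were called higher, none lower and 22 were not called, below the background of 31% higher and 20.5% lower, with a median log2 difference of 0.23. RPL3A, a protein of the large subunit, stood at 942 and 675 CPM in the buds and 736 and 711 CPM in leaf 3 and 4 (edgeR adjusted p 0.655), groups that overlapped, and at 239.8 and 231 CPM in leaf 1 and 2. RPS18C and RPL23aB were the 2 called genes, at 1.13 ± 0.32 and 1.14 ± 0.39 (SE; edgeR adjusted p 0.0256 and 0.0496), and both calls were lost without leaf 3, at differences of 1.31 for both, and without leaf 4, at 1.05 and 1.04. RPL23aB stood at 0.46 without bud 1. Unlike that of RPS18C, its call was also lost with all 4 libraries, by edgeR with RLE factors and with no filter (adjusted p 0.0572 and 0.0525) and by limma-voom (adjusted p 0.0841). Summed over the list, the buds held 8764.6 and 5867.1 CPM, leaf 3 and 4 held 6910.8 and 6501.9 CPM, and leaf 1 and 2 held 2308.5 and 2325.5 CPM. The bud samples lay on either side of leaf 3 and 4, so the count turned with the bud sample used: 15 higher and 4 lower without bud 2, and 3 higher and 8 lower, at a median of -0.19, without bud 1. Library size scaling gave 17 higher and none lower.

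Meristem and organ boundary genes were higher in 21 of the 24 that were tested, of 25 listed, and lower in 1, with a median log2 difference of 4.01, or 3.58 at the counting bounds. STM, the homeobox gene that keeps meristem cells undifferentiated, stood at 30.6 and 35.9 CPM in the buds with no pair in leaf 3 and 4, at least 607-fold higher. WUS, which maintains the stem cells, stood at 13.8 and 16.6 CPM, at least 278-fold higher, and had no pair in any of the 4 leaf libraries shown. CUC2, which separates neighbouring organs, stood at 4.52 and 3.39 CPM, at least 72.3-fold higher. KNAT1, a relative of STM, stood at 45.4 and 44.5 against 0.0375 and 0.107 CPM (9.25 ± 0.40, SE; edgeR adjusted p 7.56e-05). CLV3, the peptide that limits WUS, was not tested, with 9 pairs in bud 1 and none elsewhere, while CLV1, its receptor, was lower in the buds, at 27.7 and 43.4 against 83.2 and 89.9 CPM (-1.28 ± 0.28, SE; edgeR adjusted p 0.00941). The CLV1 call was lost without leaf 3, without leaf 4 and under library size scaling. RPL and BOP2 were not called, at 0.98 ± 0.42 and 0.73 ± 0.30 (SE; edgeR adjusted p 0.0919 and 0.0821). The difference of KNAT1 was 10.26 without leaf 4.

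**Figure D3:**
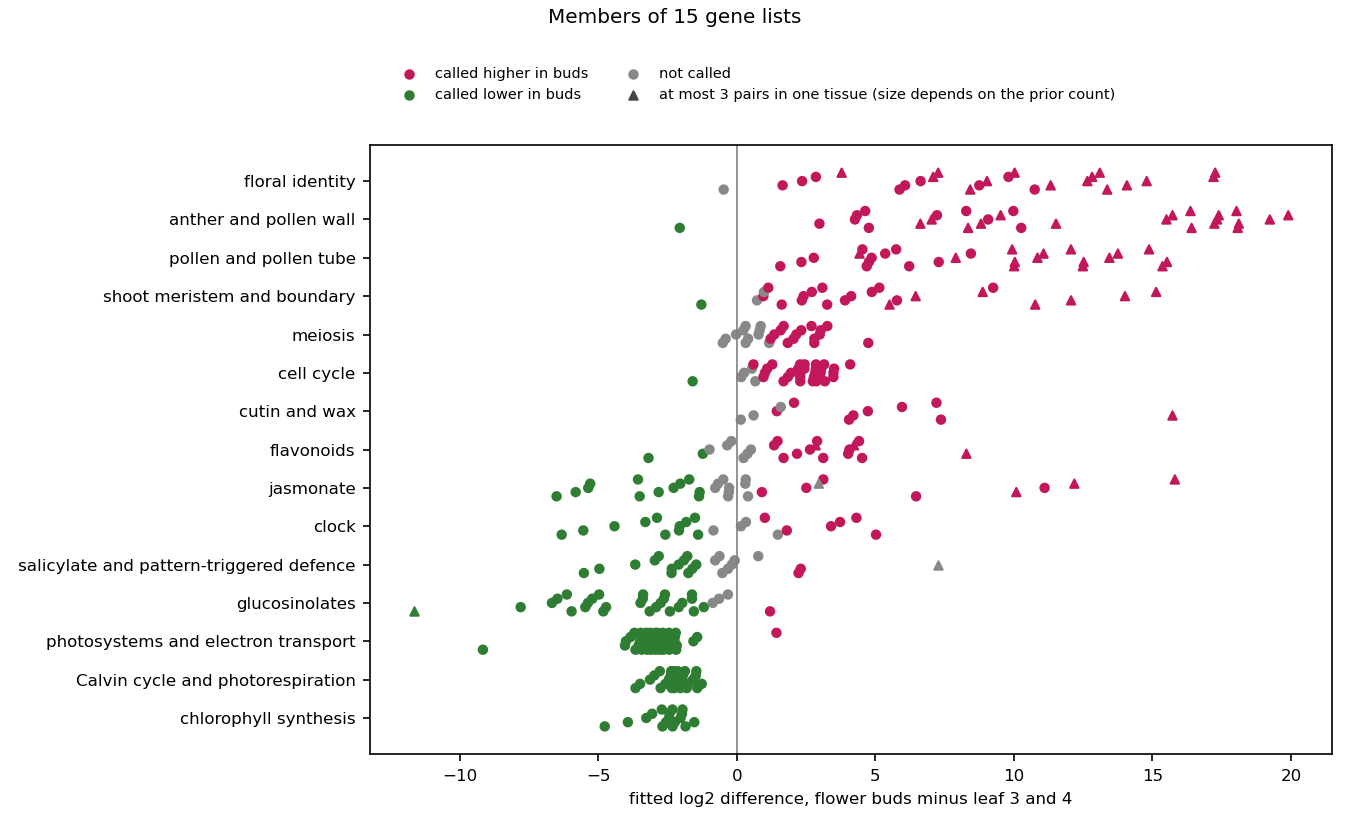
Fitted log2 difference between flower buds and leaf 3 and 4 for each tested member of 15 gene lists; colour gives the edgeR call and triangles mark genes with at most 3 pairs in one tissue, whose plotted size depends on the prior count. Photosystem genes lay around a median of -2.95, with LHCB1.4 far below at -9.17 and LHCB4.3 alone above 0, while jasmonate and clock genes spread to both sides.

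Photosynthesis genes were lower in the buds nearly without exception. Of 50 photosystem and electron transport genes 49 were lower and 1 higher, with a median log2 difference of -2.95. Their summed level was 28248 and 33287 CPM in the buds against 273510 and 270560 CPM in leaf 3 and 4. Leaf 1 and 2 held 172290 and 82237 CPM, and the median against that pair was -2.01. LHCB1.1, a light-harvesting protein of photosystem II, stood at 1383 and 944 against 18546 and 18917 CPM (-4.01 ± 0.37, SE; edgeR adjusted p 3.48e-04). PSAD2, a stromal subunit of photosystem I, stood at 70.2 and 275 against 2354 and 3328 CPM (-4.04 ± 0.68, SE; edgeR adjusted p 0.00329), and its difference ranged from -3.37 without bud 1 to -5.34 without bud 2. LHCB1.4 had the largest difference of the list, at 11.1 and 19.5 against 9067 and 8559.6 CPM (-9.17 ± 0.51, SE; edgeR adjusted p 8.21e-05), but leaf 1 and 2 held it at 857 and 49.3 CPM. The LHCB1 genes are near-identical copies and the counting of shared reads is not given in the sources used here, so the split between them is uncertain. LHCB4.3, an isoform of a minor antenna protein, was the one gene that was higher, at 137 and 186 against 66.6 and 53.7 CPM (1.43 ± 0.27, SE; edgeR adjusted p 0.00515). Leaf 1 and 2 held it at 258 and 403 CPM, above the buds, and the call was lost without leaf 4.

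Calvin cycle and photorespiration genes were lower in 32 of 32 cases, with a median log2 difference of -2.24, and of -2.25 against leaf 1 and 2. RBCS1B, a small subunit of Rubisco, stood at 226 and 466 against 4939 and 3819 CPM (-3.66 ± 0.45, SE; edgeR adjusted p 9.18e-04). The difference of RBCS1B was -4.28 without bud 2. FBA2, a plastid aldolase, stood at 469 and 849 against 5941 and 5656 CPM (-3.14 ± 0.39, SE; edgeR adjusted p 9.67e-04). CAT2, the catalase that removes photorespiratory hydrogen peroxide, stood at 209.7 and 355 against 766 and 759.8 CPM, with 3124 and 2399 CPM in leaf 1 and 2. The call of CAT2 was lost without leaf 3, without leaf 4 and under library size scaling (adjusted p 0.092, 0.0923 and 0.122). Its leaf level thus depended on the leaf pair, and both pairs lay above both bud samples.

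Chlorophyll synthesis followed, with 17 of 17 genes lower and a median of -2.44. PORB, a protochlorophyllide reductase, stood at 40.4 and 213 CPM in the buds and 3307 and 3614 CPM in leaf 3 and 4 (-4.77 ± 0.80, SE; edgeR adjusted p 0.00325), but at 137 and 189 CPM in leaf 1 and 2, close to the level of bud 2. Its difference ranged from -4.03 without bud 1 to -6.42 without bud 2. PORC, a second reductase of this step, stood at 99.5 and 104 CPM in the buds, 547 and 474 CPM in leaf 3 and 4 and 247 and 224 CPM in leaf 1 and 2. GUN4, which activates magnesium chelatase, stood at 50.3 and 57.5 against 496 and 545 CPM (-3.27 ± 0.26, SE; edgeR adjusted p 1.98e-04). GSA1, which makes the aminolevulinate precursor, was lower than in leaf 3 and 4, at 55.1 and 78.0 against 249 and 271 CPM, while leaf 1 and 2 held 70.6 and 82.2 CPM. Against leaf 1 and 2 the median of the list was -1.08.

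Transcripts of the plastid genome were lower as well: 85 of 86 tested loci were called lower and none higher, at a median of -3.20. They made up 0.00904% and 0.0179% of bud pairs against 0.0898% and 0.113% of those of leaf 3 and 4. In leaf 1 and 2 they made up 0.0277% and 0.0502%, and the median against that pair was -1.71. PolyA selection leaves few of them in any library. Of 122 loci of the mitochondrial genome 59 were tested, 11 were lower and none higher, under the background share of 20.5%, at a median of -0.93. The number tested changed with the library left out, from 43 without bud 2 to 80 without leaf 4. The median ran from -0.37 without bud 1 to -1.90 without bud 2. ATMG00280 had the largest difference of these, at 0 and 0.0249 against 3.15 and 1.71 CPM (-7.51 ± 0.95, SE; edgeR adjusted p 0.00108), with differences of -6.53 without bud 1 and -10.93 without bud 2.

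**Figure D4:**
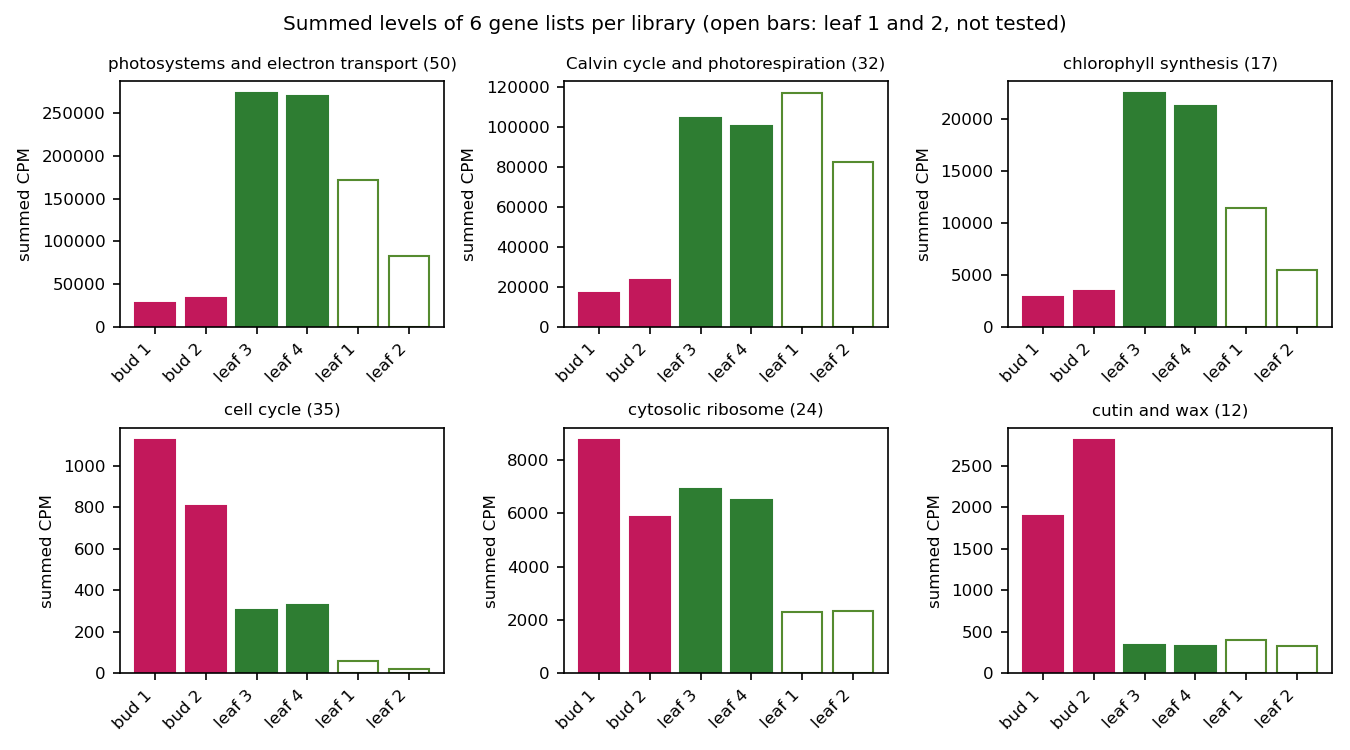
Summed CPM of 6 gene lists in each library, with the number of genes in brackets; red bars are flower buds, green bars leaf 3 and 4, open bars leaf 1 and 2. Photosystem genes summed to 273510 CPM in leaf 3 and 28248 CPM in bud 1; for the cytosolic ribosome bud 1 lay above and bud 2 below leaf 3 and 4, and leaf 1 and 2 lay below all of these.

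The loci with the most counted pairs were partly the same in both tissues. RBCS1A had the highest mean CPM of all loci in the buds, at 3816 and 4869.6 CPM, and LHCB1.3 the highest in leaf 3 and 4, at 31500.5 and 33138 CPM, yet both were lower in the buds, with log2 differences of -2.27 ± 0.33 and -3.55 ± 0.34 (SE; edgeR adjusted p 0.00179 and 3.96e-04). Mean levels were 4237 and 20485 CPM per kb for RBCS1A and 2639 and 30957 CPM per kb for LHCB1.3, in buds and leaf 3 and 4. VSP1, a vegetative storage protein of the jasmonate response, stood next at 3429.8 and 3114 CPM in the buds and 0.751 and 2.2 CPM in leaf 3 and 4 (11.11 ± 0.68, SE; edgeR adjusted p 9.73e-05). TGG2, a myrosinase, stood at 1693 and 3444 against 1053 and 1190.2 CPM (1.2 ± 0.39, SE; edgeR adjusted p 0.0406), a call lost without leaf 3, without leaf 4, with RLE factors and with limma-voom, and a difference of 0.59 without bud 2. BGLU18, a beta-glucosidase that releases abscisic acid from its glucose ester, stood at 3377 and 1687 against 27.9 and 39.4 CPM (6.23 ± 0.50, SE; edgeR adjusted p 2.10e-04), with 691 and 93.0 CPM in leaf 1 and 2. The difference of VSP1 was 12.14 without leaf 4, and that of BGLU18 5.65 without bud 1.

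Glucosinolate genes were lower in 27 of the 31 that were tested, of 32 listed, and higher in 1, with a median log2 difference of -3.15. MYB76, which regulates aliphatic glucosinolate synthesis, had no pair in the buds and stood at 3.30 and 2.70 CPM in leaf 3 and 4, at least 486-fold lower in the buds. CYP79F1, which starts that branch from chain-elongated methionine, stood at 2.56 and 2.80 against 253 and 297 CPM (-6.68 ± 0.29, SE; edgeR adjusted p 7.56e-05), and the chain elongation enzyme MAM1 at 4.54 and 5.80 against 380.0 and 544 CPM. IGMT1 and IGMT4, annotated as O-methyltransferases, stood at 0.122 and 0.145 against 33.9 and 26.4 CPM and at 0.203 and 0.286 against 345 and 409 CPM; they are close copies and reads may be shared. Among genes of glucosinolate breakdown, 2 were not called: TGG1, a myrosinase, stood at 1781 and 2028 against 2891 and 3064 CPM and ESP, which steers breakdown to nitriles, at 32.9 and 36.4 against 32.7 and 54.1 CPM, both uncalled (edgeR adjusted p 0.0851 and 0.386) and both above 0 under library size scaling. TGG1 was called lower by DESeq2 (-0.70, adjusted p 0.0216) and by edgeR without bud 1 and without bud 2 (adjusted p 0.00242 and 1.56e-04). Leaf 1 held TGG1 and TGG2 at 1684 and 1106 CPM, and leaf 2 at 189.5 and 82.5 CPM.

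Salicylate and pattern-triggered defence genes were lower in 13 of the 23 that were tested, of 26 listed, higher in 2 and not called in 8, with a median of -1.61. CBP60g, which activates salicylate synthesis, stood at 0.671 and 0.336 against 30.1 and 16.4 CPM (-5.53 ± 0.51, SE; edgeR adjusted p 3.32e-04), and WRKY33, a regulator of camalexin synthesis, at 3.21 and 5.34 against 156 and 111 CPM (-4.97 ± 0.38, SE; edgeR adjusted p 1.88e-04). PBS3, which makes the glutamate conjugate of isochorismate, was higher, at 26.0 and 18.8 against 4.84 and 4.23 CPM (2.3 ± 0.27, SE; edgeR adjusted p 8.13e-04), although leaf 1 and 2 held 28.4 and 16.3 CPM. PR1 and PR2, classic markers of the salicylate response, differed more between the leaf pairs than between the buds and leaf 3 and 4. PR2 stood at 2.70 and 0.859 CPM in the buds, 3.04 and 3.09 CPM in leaf 3 and 4 and 330.1 and 189.7 CPM in leaf 1 and 2, with no call (edgeR adjusted p 0.277), and PR1, which did not pass the filter, at 0.305 and 0.0664 CPM in the buds, 0.0375 and 0 CPM in leaf 3 and 4 and 81.3 and 29.1 CPM in leaf 1 and 2.

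Jasmonate genes went both ways. Of 30 genes 8 were higher, 12 lower and 10 not called, against the background of 31% higher and 20.5% lower. The share higher was thus near the background. The median of -0.41 became 0.42 under library size scaling. Synthesis genes were among the lower: AOS, allene oxide synthase, stood at 21.5 and 19.7 against 736 and 965 CPM (-5.37 ± 0.31, SE; edgeR adjusted p 8.75e-05), and AOC2, which acts after it, at 7.31 and 3.62 against 310.5 and 308 CPM (-5.82 ± 0.44, SE). AOC4 was the reverse, at 168 and 114 against 24.5 and 25.2 CPM (2.5 ± 0.28, SE; edgeR adjusted p 6.53e-04). ORA59, which drives the ethylene-dependent defence branch, was at 0.0570 and 0.0664 against 5.63 and 5.79 CPM, and its target PDF1.2 at 0.0692 and 0.0249 against 1.5 and 2.27 CPM, with 744 and 89.2 CPM in leaf 1 and 2. The stamen regulators MYB21 and MYB57, which carry the jasmonate signal in filaments and petals, had no pair in leaf 3 and 4 and stood at 57.0 and 49.0 CPM and at 4.09 and 4.49 CPM in the buds, at least 969-fold and 78.3-fold higher. Without bud 1 the difference of AOC2 was -6.42 and that of PDF1.2 -6.18. VSP2, the second storage protein gene, stood at 622 and 758 against 5.59 and 9.98 CPM (6.47 ± 0.42, SE; edgeR adjusted p 1.14e-04).

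Flavonoid genes were higher in 14 of 22 tested genes, of 23 listed, and lower in 2, with a median of 1.93. The flavonol branch accounted for several: the regulators MYB12 and MYB111 stood at 11.4 and 12.9 against 0.563 and 0.497 CPM and at 30.4 and 27.3 against 2.18 and 1.28 CPM, and FLS1, flavonol synthase, at 297 and 216 against 61.4 and 52.8 CPM (2.17 ± 0.27, SE; edgeR adjusted p 0.00102). TT7, the flavonoid hydroxylase, stood at 65.8 and 63.9 against 2.55 and 3.55 CPM (4.41 ± 0.28, SE; edgeR adjusted p 1.06e-04). Chalcone synthase, TT4, had 596 and 643 against 488 and 464 CPM and was not called (edgeR adjusted p 0.221). The anthocyanin regulator PAP1 was lower, at 0.521 and 0.552 against 4.99 and 4.83 CPM (-3.19 ± 0.32, SE; edgeR adjusted p 4.55e-04). DFR and LDOX, enzymes of that branch, were not called, at 0.639 and 0.0581 against 0.713 and 0.675 CPM and 1.92 and 0.357 against 1.09 and 1.53 CPM, while leaf 2 held 46.3 and 15.8 CPM.

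Surface and wall genes were mostly higher. Cutin and wax genes were higher in 9 of 12 cases and lower in none, with a median of 4.13. DCR, an acyltransferase of cutin synthesis in flowers, stood at 526 and 601 against 2.59 and 4.23 CPM (7.37 ± 0.39, SE; edgeR adjusted p 8.10e-05), and CYP86A4, a fatty acid hydroxylase, at 116 and 127 against 0.901 and 0.746 CPM (7.20 ± 0.30, SE; edgeR adjusted p 7.56e-05). SHN1, a regulator of cuticle genes, had no pair in leaf 3 and 4 and 51.1 and 47.9 CPM in the buds, at least 905-fold higher. CER1, which makes wax alkanes, stood at 360.4 and 964 against 23.9 and 26.1 CPM, unequal between the bud samples, with a difference of 3.85 without bud 2. Secondary wall genes were higher in 10 of 15 tested genes, of 16 listed, and lower in none, at a median of 2.16. MYB26 and NST1, which direct the wall thickening that opens anthers, had no pair in leaf 3 and 4 and stood at 7.50 and 5.87 CPM and at 4.46 and 4.65 CPM in the buds, at least 122-fold and 83.2-fold higher. NST2 had no pair in leaf 3 and 4 either, and such genes could hardly be called lower. VND6 and VND7, regulators of xylem vessels, were not called, at -0.22 ± 0.36 and -0.28 ± 0.44 (SE; edgeR adjusted p 0.641 and 0.615).

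Clock genes differed between tissues, between bud samples and between leaf pairs. Of 21 genes 6 were higher in the buds, 11 lower and 4 not called, with a median of -1.40. Genes of the afternoon and evening were among the lower: PRR5 stood at 1.69 and 9.93 CPM in the buds and 258 and 285 CPM in leaf 3 and 4 (-5.55 ± 0.85, SE; edgeR adjusted p 0.00230), and FKF1, a blue light receptor, at 0.757 and 2.21 against 95.1 and 143 CPM (-6.33 ± 0.62, SE; edgeR adjusted p 4.16e-04). Leaf 1 and 2 held PRR5 at 2.15 and 29.1 and FKF1 at 0.0808 and 5.54 CPM, closer to the buds than to leaf 3 and 4, and the difference of PRR5 ran from -4.77 without bud 1 to -7.33 without bud 2, while that of FKF1 was -7.30 without bud 2. LHY, a morning gene, was higher, at 246 and 14.2 against 3.87 and 4.16 CPM (5.02 ± 1.24, SE; edgeR adjusted p 0.0152), but the bud samples were far apart, and its log2 difference was 1.83 without bud 1 and 5.94 without bud 2. Leaf 1 and 2 differed likewise, at 349 and 28.4 CPM, and limma-voom did not call it (adjusted p 0.106). BOA, a relative of LUX, stood at 12.4 and 7.99 against 0.525 and 0.497 CPM (4.31 ± 0.38, SE; edgeR adjusted p 2.99e-04), with 0.0870 and 0.133 CPM in leaf 1 and 2. The labels used here give no time of harvest, and its part in these values was not tested.

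Flowering time genes were higher in 8 of 19 cases and lower in 4, against the background of 31% and 20.5%. The share lower was near that background, and the median was 0.53. The 5 SPL genes on the list, targets of miR156 that promote flowering, were called higher: SPL3 stood at 146 and 159 against 9.49 and 12 CPM, SPL9 at 76.3 and 69.1 against 11.4 and 12.4 CPM and SPL5 at 63.4 and 36.0 against 0.413 and 0.888 CPM (6.25 ± 0.49, SE; edgeR adjusted p 2.09e-04). The difference of SPL5 was 6.95 without leaf 4. TOE1, a repressor of flowering and target of miR172, was lower, at 2.00 and 1.76 against 165 and 182 CPM (-6.53 ± 0.28, SE; edgeR adjusted p 7.56e-05), with 139.9 and 113 CPM in leaf 1 and 2. SVP, a MADS repressor, stood at 11.2 and 9.85 against 151 and 157 CPM (-3.87 ± 0.24, SE; edgeR adjusted p 1.07e-04). FT, the mobile signal that leaves send to the shoot tip, was called higher in the buds at 3.67 and 3.58 against 0 and 0.0355 CPM, a ratio of 199 with a 95% counting interval of 35.6 to 7848, while leaf 1 and 2 held 27.6 and 30.3 CPM, above the buds. Its relative TSF followed the same order, at 0.244 and 0.423 CPM in the buds, no pair in leaf 3 and 4, and 3.92 and 5.21 CPM in leaf 1 and 2. For FT and TSF the direction between tissues therefore depended on the leaf pair.

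**Figure D5:**
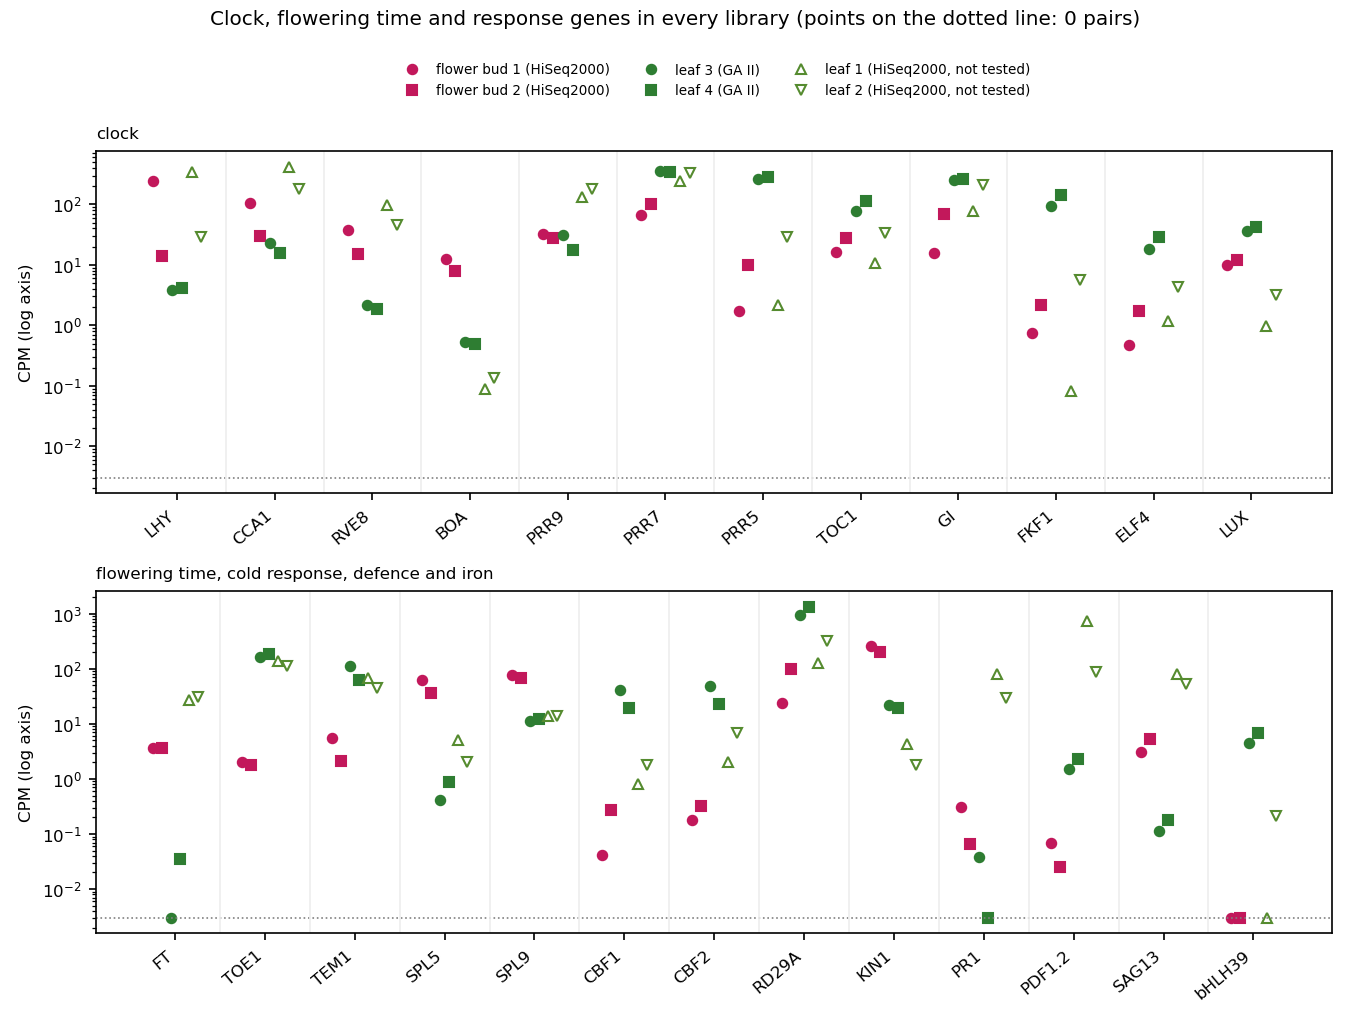
Levels of 12 clock genes (top) and 13 flowering time, cold response, defence and iron genes (bottom) in each library, in CPM on a log axis; symbols as in the plot of reproductive genes, with points on the dotted line at 0 pairs. FT, PR1, PDF1.2 and SAG13 were higher in leaf 1 and 2 than in the buds, and lower in leaf 3 and 4 than in leaf 1 and 2.

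Cold and heat response genes were lower in 9 of 15 cases and higher in 4, at a median of -1.31. CBF1 and CBF2, transcription factors induced by cold and gated by the clock, stood at 0.0407 and 0.270 against 41.9 and 19.7 CPM and at 0.179 and 0.328 against 48.2 and 22.7 CPM (-7.63 ± 0.90 and -7.12 ± 0.56, SE; edgeR adjusted p 8.11e-04 and 1.97e-04). Leaf 3 held more than 2 times as much of both as leaf 4, and leaf 1 and 2 held 0.802 and 1.79 CPM of CBF1 and 2.01 and 6.84 CPM of CBF2. The difference of CBF1 was -6.83 without bud 1 and -9.52 without bud 2, and that of CBF2 was -6.43 without leaf 3. RD29A, a stress-induced target, stood at 24.1 and 100.4 against 946 and 1341 CPM, with differences of -3.51 without bud 1 and -5.57 without bud 2. KIN1, another cold-induced gene, was the reverse, at 262 and 206 against 21.7 and 19.2 CPM (3.52 ± 0.27, SE; edgeR adjusted p 1.86e-04). HSP101, a heat-induced chaperone, was uneven between the bud samples and stood at 7.99 and 25.4 against 6.15 and 8.17 CPM with no call (edgeR adjusted p 0.0980).

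Senescence genes gave no common direction, with 6 of 18 tested genes higher, of 19 listed, 5 lower and 7 not called. These counts lay near the background of 31% higher and 20.5% lower. SAG13, a gene induced in ageing leaves, stood at 3.07 and 5.30 CPM in the buds, 0.113 and 0.178 CPM in leaf 3 and 4 and 79.3 and 53.7 CPM in leaf 1 and 2. NAP, a regulator of leaf senescence, stood at 5.55 and 11 CPM in the buds, 8.37 and 2.66 CPM in leaf 3 and 4 and 146 and 109 CPM in leaf 1 and 2, and was not called against leaf 3 and 4 (edgeR adjusted p 0.428). The median was 0.29 against leaf 3 and 4 and -1.55 against leaf 1 and 2. It turned to -0.09 with a filter of 1 CPM and -0.05 without leaf 4, and the number lower ran from 1 under library size scaling, without leaf 3 or without leaf 4, to 8 without bud 2.

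Iron genes were lower in 5 of 8 cases and higher in 2. The bHLH factors that respond to iron shortage were nearly absent from the buds: bHLH39 had no pair there and 4.43 and 6.86 CPM in leaf 3 and 4, at least 921-fold lower, and bHLH38 stood at 0 and 0.00415 against 6.76 and 8.53 CPM, a ratio of 3731 with a 95% counting interval of 666 to 147713. Leaf 1 had no pair of either, and leaf 2 held 0.214 and 0.330 CPM. FER1, the iron store ferritin, was higher in the buds, at 375 and 358 against 87.9 and 62.7 CPM (2.28 ± 0.27, SE; edgeR adjusted p 8.56e-04), with 303 and 177 CPM in leaf 1 and 2. IRT1, the iron transporter listed as a root marker, stood at 8.03 and 8.68 CPM in the buds with no pair in any leaf library shown, at least 153-fold higher.

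Hormone and growth genes were mixed. Auxin and gibberellin genes were higher in 12 of 23 tested genes, of 25 listed, and lower in 3, with a median of 1.02. MP, an auxin response factor of organ initiation, stood at 90.3 and 123 against 11.4 and 13.5 CPM (3.10 ± 0.27, SE; edgeR adjusted p 2.93e-04), and ARF8, which acts in flower maturation, at 171 and 172 against 23.3 and 23.4 CPM (2.87 ± 0.23, SE; edgeR adjusted p 2.14e-04). The gibberellin 3-oxidases, which make the active hormone, differed in opposite directions: GA3OX1 stood at 0.732 and 1.07 against 24.8 and 27.0 CPM (-4.85 ± 0.31, SE; edgeR adjusted p 1.06e-04), while GA3OX3 had 2.34 and 1.36 CPM in the buds and no leaf 3 or 4 pair, at least 33.8-fold higher. PIN4, an auxin efflux carrier, was lower, at 14.4 and 14.6 against 101 and 122 CPM (-2.94 ± 0.24, SE; edgeR adjusted p 2.18e-04).

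Leaf growth factors split by family. Growth-regulating factors were higher in 8 of 9 genes, GRF2 being uncalled, together with their partner AN3, at 64.6 and 64.4 against 1.91 and 2.63 CPM (4.83 ± 0.28, SE; edgeR adjusted p 8.92e-05). GRF5, GRF6 and GRF8 had at most 3 pairs over leaf 3 and 4 and could hardly be called lower. The TCP genes that slow leaf growth were lower in 3 of 5 and not called in 2, and none kept a call of lower under library size scaling or without leaf 4. TCP4 stood at 14.8 and 46.5 against 92.7 and 116 CPM (-1.77 ± 0.52, SE; edgeR adjusted p 0.0286), unequal between the bud samples, with differences of -1.17 without bud 1 and -2.82 without bud 2. Leaf 1 and 2 held TCP4 at 36.9 and 38.6 CPM, between the bud samples, so its difference depended on the leaf pair. Stomatal and trichome genes were lower in 6 of 16 cases and higher in 2, at a median of -0.11 whose sign turned under upper quartile and library size scaling and without leaf 4. These counts were 2 higher and 2 lower without leaf 3, 1 and 3 without leaf 4, and 6 and 7 without bud 2. MYB60, a guard cell factor, stood at 2.73 and 1.95 against 13.5 and 14.0 CPM (-2.56 ± 0.28, SE; edgeR adjusted p 6.49e-04), and the trichome factor GL2 at 0.871 and 3.40 against 3.49 and 4.55 CPM with no call (edgeR adjusted p 0.263).

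Small RNA and DNA methylation genes were higher in 13 of 26 cases, lower in 1 and not called in 12, with a median of 0.86. Argonautes known from reproductive cells were called higher: AGO9 stood at 58.1 and 81.4 against 0.0375 and 0.0710 CPM, a ratio of 1272 with a 95% counting interval of 435 to 6167, and AGO5 at 28.0 and 40.8 against 0.0751 and 0.107 CPM (8.55 ± 0.43, SE; edgeR adjusted p 7.56e-05). AGO1, which acts with most microRNAs, was not called, at 203 and 302 against 162 and 169.7 CPM (edgeR adjusted p 0.109). DRM1, a DNA methyltransferase, had 1.53 and 1.000 CPM in the buds and no pair in the leaves, while its relative DRM2 stood at 17.9 and 16.1 against 10.2 and 9.70 CPM, a call lost without leaf 3 or without leaf 4 (edgeR adjusted p 0.179 and 0.215). The counts were 6 higher and none lower without leaf 3, 5 and none without leaf 4, 20 and 3 without bud 1, 13 and 6 without bud 2, and 20 and none under library size scaling.

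Actins and profilins differed within the family, and their counts are read against the background of 31% higher and 20.5% lower. Of 11 genes 5 were higher, 2 lower and 4 not called, against 2 higher and none lower without leaf 3 and 3 higher and none lower without leaf 4. The reproductive actins ACT4 and ACT12 stood at 33.6 and 31.1 against 0.0751 and 0.0710 CPM and 51.3 and 45.6 against 0.113 and 0.249 CPM (8.77 ± 0.36 and 8.05 ± 0.39, SE; edgeR adjusted p 7.56e-05 and 7.56e-05). The difference of ACT12 was 8.80 without leaf 4. ACT2, the main vegetative actin, was lower, at 243 and 224 against 457 and 481 CPM (-1.01 ± 0.23, SE; edgeR adjusted p 0.0117), a call lost without leaf 3, without leaf 4 and under library size scaling. ACT7 stood at 559 and 572 against 536 and 525 CPM (edgeR adjusted p 0.767). Among 9 genes often used as references, none was called by edgeR in either direction with all 4 libraries, 2 had an unadjusted p under 0.05, and 2 were lower by DESeq2. The median was -0.14, and 0.69 under library size scaling, which called 5 of them higher. Without bud 1 edgeR called 4 lower, and without bud 2 it called 2 higher and 2 lower. PP2AA3, a phosphatase subunit, stood at 73.2 and 61.7 against 68.0 and 64.2 CPM (0.03 ± 0.22, SE; edgeR adjusted p 0.925).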

How the data were processed

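Read pairs were counted per locus in 2 flower bud and 2 leaf libraries, with the HiSeq2000 runs of leaf 1 and 2 as a description. The authors aligned reads with Bowtie2 2.0, per the submitters' processing notes. The deposited counts are raw whole numbers of read pairs per locus, and per the file headers a second count keeps pairs with an insert of 0 to 500 bases (1000 in the HiSeq2000 run of leaf 1). The sources used here do not give aligner settings, genome build, annotation release, strand use or the treatment of reads with several matches. Copies of a gene family, overlapping loci and antisense loci may therefore share reads, among them the LHCB1, RBCS and IGMT genes, CYP79F1, AOC2, VGD1 and PDF1.2. The deposited locus length was used for levels per kb.

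The test was that of edgeR 4.0.16 in R 4.3.3 (quasi-likelihood test, TMM factors, filterByExpr at a minimum count of 10, Benjamini-Hochberg adjustment over 23078 loci, called under 0.05). Each SE is the log2 difference divided by the square root of its F value. CPM of leaf 1 and 2 used TMM factors over all 6 libraries shown. Where a tissue held no pair, the fold is a bound against 3 pairs over the group. With 1 to 3 pairs it is a ratio with an exact 95% interval, and neither the interval nor the floor covers more than counting error. RefSeq's TAIR10.1 table gave names and products for 27320 of 28094 locus IDs, and no coordinate of it was used. Alternatives were RLE factors, upper quartile factors, library size only, no filter, 1 CPM in 2 libraries, DESeq2 1.42.0, limma-voom (limma 3.58.1), pairs within the insert limit, buds thinned to 36492571 pairs, and each replicate left out.

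The members, the 29 lists with 626 entries and the tests were chosen with earlier results of these data known, so no list is independent evidence of its direction. The 88 plastid and 122 mitochondrial loci were taken by their ID prefixes. Genes were named by rule: the 8 largest called differences in each direction among loci with a symbol and at least 20 CPM, up to 3 called members of each list in its leading direction and up to 2 in the other, the 5 loci of highest mean CPM in each tissue, uncalled members where a list had at most 5, and fixed tissue markers. Other list members were named after their values were seen. On simulated counts of 22824 loci with the depths of these 4 libraries, the test called 6 of 59 loci changed 2-fold (10.2%). It called 56 of 71 changed 4-fold (78.9%), 67 of 69 changed 8-fold (97.1%) and 13 unchanged loci. Far fewer loci were changed there than were called here, and both tissues were given the same spread. These shares are therefore not the sensitivity of the test above. An uncalled gene may still differ 2-fold.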

Additional observations from a re-analysis of the deposited data

How the results depend on the processing

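The numbers called kept within 1.5 times of 7156 higher and 4722 lower under every alternative except library size only, which gave 13418 higher and 2612 lower, and some left-out replicates, whose counts ran from 4854 to 9725 higher and from 2958 to 7261 lower. Leaving out a library leaves 1 sample in that tissue, which is assumed to vary like the pair that remains. DESeq2 gave 7033 and 5186, limma-voom 6808 and 4651, pairs within the insert limit 7156 and 4724, and buds thinned to leaf depth 6640 and 4680. No paired analysis was possible because the bud samples are numbered 1 and 2 and the leaf samples 3 and 4, with no shared number. Groups of 2 are too small for the search for outlying samples. Calls also varied with GC content and length: in 5 equal groups of loci, the percent called higher went from 39.8 at the lowest GC to 27.2 at the highest, and from 35.4 in the shortest to 21.9 in the longest, and sequencer and tissue cannot be told apart there either.

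Every log2 difference of a named gene that changed sign was uncalled in the test above. Under library size only these were SEP4 at 0.347, TGG1 at 0.181, ESP at 0.503, TCP10 at 0.342, TCP24 at 0.159, PRF3 at 0.290, FER3 at 0.518, SPO11-2 at 0.317, PR2 at 0.0486, LDOX at 0.633, VND6 at 0.608 and VND7 at 0.538. PP2AA3 stood at -0.0249 with RLE factors and with DESeq2, and at -0.0152 with thinned buds. Over the 4 left-out libraries the difference ran from -0.189 to 0.428 for MCM7, from -0.596 to 0.143 for ESP, from -0.0053 to 0.278 for LNK1, from -0.117 to 0.353 for LTPG1, from -0.219 to 0.569 for PRF1, from -0.101 to 0.377 for RPL3A, from -1.87 to 0.544 for LDOX, from -0.672 to 0.0186 for VND7 and from -0.100 to 0.143 for PP2AA3. The cause of these changes was not tested.

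Among list counts, library size only moved jasmonate to 12 higher and 9 lower, salicylate defence to 5 and 12, leaf growth factors to 10 and 0, stomata and trichomes to 7 and 1, and actins and profilins to 8 and 0. Without bud 1 flavonoids stood at 15 higher and 4 lower, and without bud 2 auxin and gibberellin at 16 and 5. Counts of the floral, anther, pollen, cell cycle, meristem, photosystem, Calvin cycle, chlorophyll, glucosinolate, clock and plastid-encoded lists stayed, in the direction most members took, within 1.5 times in all 13 alternatives.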
